A study of Oryctolagus cuniculus with 12 samples.

Results

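Cytosolic ribosomal protein genes were followed across 12 RNA sequencing libraries of rabbit cornea. Members were chosen by name from the deposited table. They were all entries named RPL or RPS with a number, optionally followed by A, X, Y or L and a further number. RPSA and the stalk genes RPLP0, RPLP1 and RPLP2 were added. This gave 72 of the 29076 entries listed, 46 for the large subunit and 26 for the small, under 70 symbols. RPL18 and RPL39 each stood on 2 entries, and no entry was named RPLP2. The 72 entries covered 64 ribosomal proteins by their KEGG orthology number, the table's label for genes with the same function. Proteins L7a, L17, L28, L36, L36a, L40, P2, S2, S9, S11, S15, S19 and S27a had no entry named in this way, 13 in all. An entry named RPL36AL was present with counts but fell outside the naming rule, so it is not a member.

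The rabbits were 6 months old on a normal diet, and corneas were labelled control, blue_light, GL or RL, with 3 libraries each. The labels give no wavelength and do not spell out GL or RL. One text, light exposure lasting 6 weeks, is attached to every library, controls included, so how the controls were lit is not given in the sources used here. No label ties a library to its own animal. The p-values therefore reflect the variation among the libraries at hand, part or all of which could be technical.

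Each ribosome joins a small subunit, which reads the messenger RNA, to a large one, which forms the peptide bond and holds the tunnel through which the new protein leaves. Ribosomal proteins are needed in matched amounts, and their messenger RNAs are among the most abundant of any tissue; many carry a 5′ terminal oligopyrimidine (TOP) tract through which mTORC1 and LARP1 set their translation. RPL39, a small basic protein of the large subunit, lines that exit tunnel. Mammalian genomes also hold many processed pseudogenes of ribosomal protein genes, copies made from spliced messenger RNA, and a short read may match a gene and its copies equally well.

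That last point bears on every value here. Besides the 72 named entries, 815 entries without a ribosomal protein name carried the orthology number of a member, and 61 of the 64 proteins had at least 1 such copy with counts. How the authors' counting divided reads among near-identical copies is not given in the sources used here, so the value of a named entry is uncertain wherever copies hold counts. The sum over all entries of a protein is therefore given beside the named entry for the members described most closely, and for all 64 proteins together; other values hold for the named entry alone. The orthology number is the only link. At least LLPH, with the L31 number, and BSP1, with the L34 number, bear the names of other genes. LLPH added 13.4 to 27.0 CPM (counts scaled to the size of the library) to the L31 sum. BSP1 added 28.9 to 430 CPM to the L34 sum, on average 72.2% of it in GL.

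Library totals ran from 40.9 to 64.7 M (mega) counts, and named ribosomal protein entries took 4.17% to 5.40% of them. That share was 4.91% ± 0.657 in the controls, 4.91% ± 0.409 in blue_light, 4.48% ± 0.111 in GL and 4.67% ± 0.540 in RL (here and below mean ± SD, n = 3 in each group). With all copies the shares were 7.40% ± 1.01, 7.31% ± 0.530, 6.68% ± 0.160 and 7.03% ± 0.773. Libraries also stood apart. A set of 5 libraries (all of blue_light, control 1 and RL 1) had 2389 to 2563 genes at low counts, against 767 to 1461 in the other 7, and 3 libraries (control 2, blue_light 1 and GL 3) held the most retinal transcripts. Summed corneal epithelial markers ran from 24612 to 44667 CPM and keratocyte markers from 27907 to 42308 CPM. Retinal markers summed to 3.03 to 537 CPM, lens markers to 278 to 8054, and 2 immune markers to 6.93 to 43.4. Part of this followed the groups. The epithelial, keratocyte and immune sums were higher, and the lens sum lower, in every GL library than in every control. The lens sum was also lower in every RL library. The keratocyte and immune markers did not move as sets. In GL minus control 2 of 4 keratocyte markers lay higher and 2 lower, 1 without overlap. COL1A1 had a mean of 7681 CPM in control and 15323 in GL, while LUM (log2 0.07) and KERA (−0.09) differed little. Of the 2 immune markers CD74 lay higher (0.62) and PTPRC lower (−0.19). The part of these library differences in the results below was not tested, except by fits. These left out the 3 retinal libraries or took the set of 5 libraries as a covariate. In bulk tissue, fewer cells of a type and less RNA per cell cannot be told apart.

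Levels are compared between genes as FPKM, the authors' value scaled to transcript length and library size. The highest entry was RPLP1, an acidic protein of the stalk that recruits elongation factors, with a mean of 3185 FPKM over the 4 groups. RPS12 of the small subunit followed at 2588 and RPL26 of the large subunit at 2191. RPL39 ranked 59th at 348 FPKM. The lowest entries with counts were RPL38, known for its role in translating homeobox messages in mouse embryos, at 3.37, a second RPL18 entry at 0.936, and RPL3L, the striated muscle form of RPL3, at 0.180. RPL10L, which is known from testis, and the second RPL39 entry had a count of 0 in every library, which allows up to 0.178 to 0.265 CPM per library at 3 fragments.

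**Figure D1:**
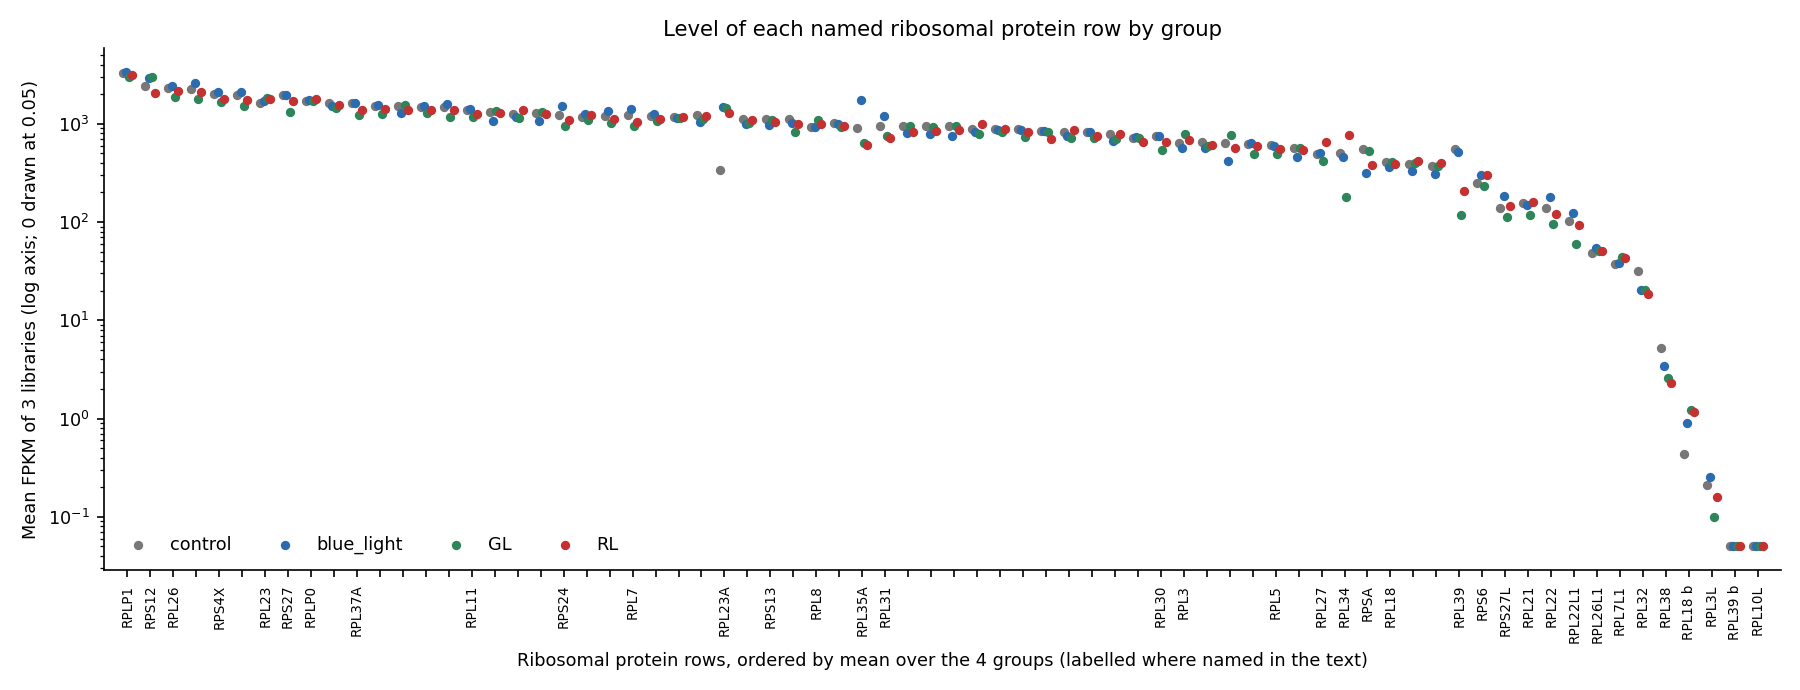
Mean FPKM of each of the 72 named ribosomal protein entries (log axis) in control, blue_light, GL and RL, each point the mean of 3 libraries, ordered from RPLP1 at 3185 to the 2 entries at 0 (drawn at 0.05; genes named in the text are labelled, and a trailing b marks the second entry of a symbol). For most genes the 4 points lie close together, while RPL23A is low in the controls, RPL35A high in blue_light, RPL34 low in GL and RPL39 low in GL and RL.

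The low place of RPL38 did not hold for its protein. The named entry never took more than 2.31% of the counts with its orthology number, RPL32 never more than 4.06%, and RPL21 never more than 18.2%. RPS6, the small subunit protein phosphorylated by S6 kinase, took 16.5% to 28.5%. At the other end, the named entry took over 90% in every library for 21 proteins, among them RPLP1, RPL11 and RPS13. Paralogues differed in how far they stood from their partners. RPS27L, a p53 target, had 145 FPKM beside 1743 for RPS27, RPL26L1 had 50.8 beside 2191 for RPL26, and RPL7L1, a factor of large subunit assembly, had 40.4 beside 1159 for RPL7. RPL22L1, with 94.6 FPKM, was close to the entry named RPL22, with 134. That entry spans only 53155572 to 53156056 on chromosome 19 and is called LOC100354980 in the RefSeq assembly used for names. Whether it is the gene or a copy was not tested. The X-linked RPS4X, unlike these paralogues, had rank 5 of the 72 entries.

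The stalk genes RPLP0 and RPLP1 and the 5S RNA partners RPL5 and RPL11 did not pass the test in any comparison. RPLP0, the base of the stalk, stood at 1717 ± 93.1 FPKM in the controls, 1726 ± 66.8 in blue_light, 1708 ± 83.1 in GL and 1780.2 ± 100.2 in RL. RPLP1 stood at 3247 ± 166, 3372 ± 236, 2983 ± 229 and 3140 ± 401 in the same order. RPL11, which with RPL5 and 5S RNA binds MDM2 when assembly fails, stood at 1391 ± 222, 1416 ± 204, 1163 ± 28.6 and 1251 ± 71.1. RPL5 stood at 602 ± 26.0, 587 ± 118, 494 ± 41.9 and 557 ± 90.8, the GL libraries (469 to 543) all below the controls (580.1 to 631). The GL minus control difference was log2 −0.23 ± 0.17 SE for RPL5 (adjusted p = 0.718; −0.24 ± 0.16 for its sum, adjusted p = 0.705) and 0.04 ± 0.14 for RPLP0 (adjusted p = 0.959).

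Each light group was set against control, and the light groups against each other, to ask whether ribosomal protein transcripts differ with the illumination. In edgeR quasi-likelihood fits over 18171 genes, 70 member entries had enough counts to be tested, and 1 passed a Benjamini-Hochberg adjusted p of 0.05 in any of the 6 comparisons: RPL39, lower in GL than in control. The comparisons against control share their 3 control libraries, and those between light groups share light libraries.

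In GL minus control 1 of 70 members passed, where 0.0550% of all genes passed and 0.0495% passed with a lower value. At an unadjusted p below 0.05 there were 7 members (1 higher, 6 lower), against 8.10% of all genes. GL and control libraries did not overlap for 10 members, 14.3%, against 18.5% of all genes. RPL39, RPL22L1, RPL37A, RPL7, RPS24 and RPL5 lay lower (6 of 70, beside 9.25% of all genes), and RPL23A, RPL7L1, RPL23 and the second RPL18 entry higher (4 of 70, beside 9.21%). The median difference of the members was log2 −0.11, with 46 of 70 lower, beside −0.02 for all genes. It ranged from −0.27 with library size as a covariate to −0.04 without control 2. Of the 26 small subunit members 20 were lower, with a median of −0.13.

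In RL minus control 0 members passed (0.0110% of all genes), 3 had an unadjusted p below 0.05 (4.74% of all genes) and 3 did not overlap (8.32%): RPL39 and RPL31 lower, RPL27 higher. The median was −0.03, beside 0.00 for all genes, and it turned sign with the libraries used: it ran from −0.15 without control 1 to 0.09 without the 3 retinal libraries, and was also positive without control 2 (0.09), control 3 (0.02) or RL 1 (0.08). In blue_light minus control 0 passed (0.0165%), 3 had an unadjusted p below 0.05 (3.26%) and 3 did not overlap (9.00%): RPSA lower, RPL23A and RPS27L higher. The median was −0.01, beside 0.01, and ran from −0.14 without control 1 to 0.18 with the set of 5 libraries as a covariate; it was also positive without control 2 (0.05) or control 3 (0.04).

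Between light groups no member passed either. In blue_light minus GL 9 of 18171 genes passed (0.0495%), 13 members had an unadjusted p below 0.05 (14.9% of all genes), and 25 of 70 did not overlap, 17 higher and 8 lower, beside 26.9% of all genes. The median of the members was log2 0.04, beside 0.05 for all genes. It ran from 0.02 without RL 2 to 0.36 with the set of 5 libraries as a covariate. In blue_light minus RL the share of genes that passed was 0.0110%. There 7 members had an unadjusted p below 0.05 (5.14%) and 5 did not overlap (8.99%). In GL minus RL, where 0.0715% of genes passed, 4 members had an unadjusted p below 0.05 (8.60%), all lower in GL. The GL and RL libraries did not overlap for 14 members (13.2% of all genes), 13 of them lower in GL.

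RPL39 stood on chromosome X at 68525263 to 68527920, minus strand, in the table's rabbit coordinates. Its counts in the 3 control libraries were 168.5, 297 and 295 CPM, and in blue_light 307, 248 and 149.8 CPM. In GL they were 62.4, 57.6 and 48.4 CPM, and in RL 141, 91.1 and 64.1 CPM. In CPM every GL library lay below every other library, and every RL library lay below every control and every blue_light library, while control and blue_light overlapped. As FPKM the group means were 551 ± 155, 515 ± 183, 118 ± 16.7 and 207 ± 87.0 in control, blue_light, GL and RL. On this scale GL 1 (133.4) lay above RL 3 (132.5), so GL and RL overlapped.

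By edgeR, RPL39 fell in GL against control by log2 −2.18 ± 0.33 SE (adjusted p = 0.0404). RL minus control was −1.36 ± 0.33 (adjusted p = 0.565) and blue_light minus control −0.11 ± 0.32 (adjusted p = 1). Blue_light minus GL was 2.06 ± 0.33 (adjusted p = 0.0591), blue_light minus RL 1.25 ± 0.32 (0.663) and GL minus RL −0.82 ± 0.32 (0.549). By DESeq2 RL minus control (adjusted p = 0.0160), blue_light minus GL (6.4e-07) and blue_light minus RL (0.0450) passed as well, and blue_light minus GL passed in 7 of its 24 alternatives. The GL minus control call ended with log2 library size as a covariate (−1.75, adjusted p = 0.375), with the set of 5 libraries as a covariate (−2.15, 0.0609), by limma on log2(FPKM + 1) (−2.18, 0.0559) and without the 3 retinal libraries (−1.95, 0.772). It also ended when blue_light 2, control 2, control 3, GL 1, GL 2 or GL 3 was left out, the difference then running from −2.26 to −2.05.

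Markers of other tissue moved in the same comparisons. The 4 lens markers CRYAA, CRYBB2, BFSP1 and LIM2, each detected, summed to 3261 to 5147 CPM in the controls, 1104 to 8054 in blue_light, 390 to 2225 in GL and 278 to 2052 in RL. In GL minus control 4 of 4 lay lower without overlap (median log2 −1.44), and in RL minus control 4 of 4 lay lower, 3 of them without overlap (median −1.56). Of all genes, 18.5% did not overlap in GL minus control and 8.32% in RL minus control. Of the 6 retinal markers 6 lay higher in GL (median 2.70) and 5 lower in RL (median −1.28), 0 without overlap. Their sum was 3.03 to 100.5 CPM in the controls and 5.51 to 537 in GL, highest in GL 3. Of the 6 corneal epithelial markers, whose sum was 25284 to 33350 CPM in the controls and 38463 to 40228 in GL, 5 lay higher and 1 lower in GL, all without overlap. None of these markers passed the test. Their part in the RPL39 difference was not tested, except by the fit without the 3 retinal libraries given above.

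The sum over all entries with the L39 orthology number differed less and did not pass. There were 23 such entries, 17 with counts, of which 14 were tested, and 6 at 0 throughout. Summed, they had 440.4 ± 66.7 CPM in the controls, 483 ± 94.7 in blue_light, 346 ± 37.2 in GL and 443 ± 96.2 in RL. GL minus control was log2 −0.35 ± 0.20 (adjusted p = 0.638), RL minus control 0.01 ± 0.20, and blue_light minus control 0.14 ± 0.20. The sums of the GL libraries (323 to 389 CPM) overlapped those of the controls (364 to 484).

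The share held by the named entry differed between groups. RPL39 held 56.7% ± 8.96 of these counts in control and 48.5% ± 13.6 in blue_light, against 16.3% ± 2.60 in GL and 23.9% ± 12.5 in RL. The remaining entries together stood at 187 ± 8.22 CPM in the controls, 248 ± 72.5 in blue_light, 289.7 ± 36.9 in GL and 344 ± 129 in RL. The lowest GL value of these, 260.4 CPM, lay above the highest control value, 195 CPM. The named entry was thus lower, and the sum of the rest higher, in GL than in control. Single copies went both ways. Of the tested copies, LOC108177423, LOC108178831, LOC108177411 and LOC100343258 lay higher in GL than in control. Every other tested copy lay lower, at log2 −1.59 to −0.06.

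**Figure D2:**
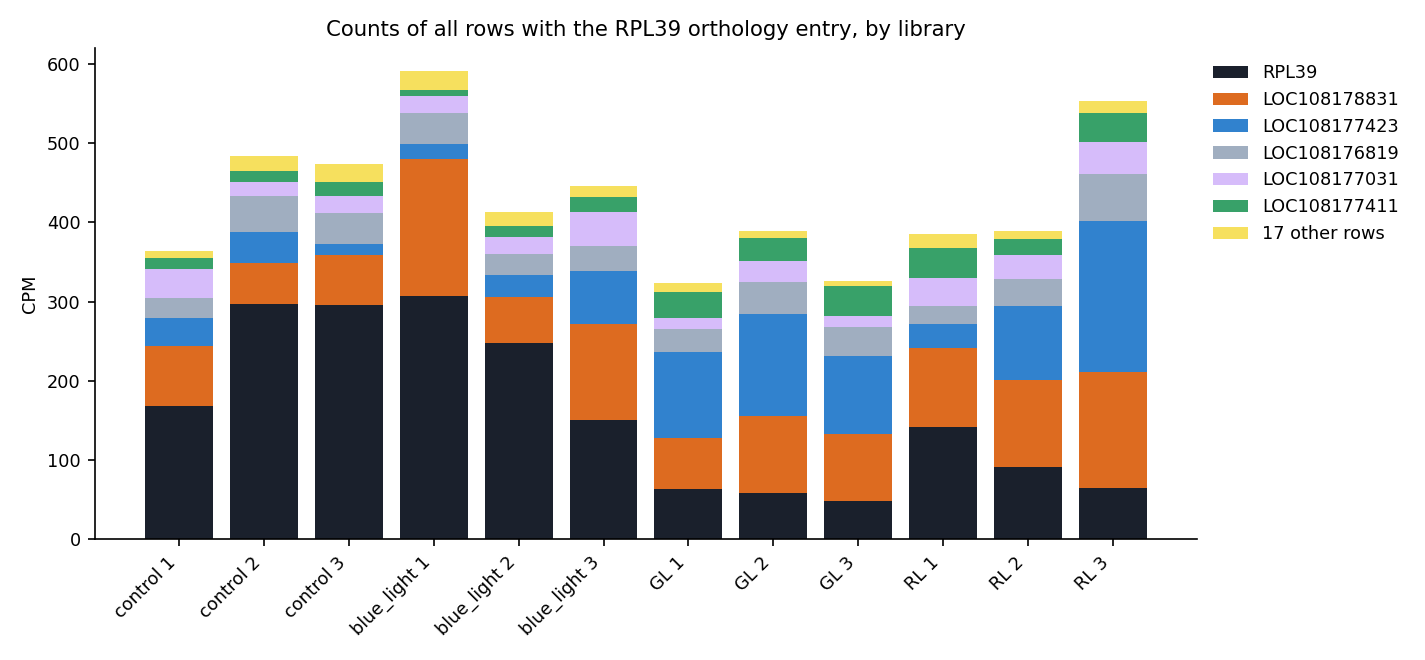
Stacked CPM of the 23 entries with the L39 orthology number in each library, with RPL39 at the base, the 5 copies with most counts above it and the 17 others on top. Bars reach 323 to 591 CPM, and RPL39 fills 14.8% to 19.3% of the GL bars but 46.4% to 62.3% of the control bars.

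The copies with most counts differed among themselves. LOC108177423, on chromosome 12 at 28106149 to 28106402, had 35.3, 38.6 and 13.6 CPM in control, 19.1, 28.0 and 67.6 in blue_light, 108.9, 129 and 98.8 in GL and 31.2, 94.5 and 191 in RL. All GL libraries lay above all controls, and RL 1 lay with the controls (GL minus control log2 1.94 ± 0.60, adjusted p = 0.502). LOC108177411, also on chromosome 12, had 15.0 ± 2.73 CPM in the controls, 12.9 ± 5.35 in blue_light, 33.4 ± 4.80 in GL and 31.7 ± 9.53 in RL. The GL minus control difference was here 1.15 ± 0.32 (adjusted p = 0.456). LOC108178831 on chromosome 2 had 63.5 ± 11.9 CPM in the controls, 117.5 ± 58.1 in blue_light, 82.4 ± 16.5 in GL and 118 ± 24.8 in RL. LOC108176819 on chromosome 7 stayed between 22.6 and 59.5 CPM in all libraries. LOC108177031 on chromosome 8 had 25.8 ± 10.4 CPM in the controls, 28.9 ± 12.4 in blue_light, 18.2 ± 6.79 in GL and 35.6 ± 5.57 in RL (GL minus control −0.50 ± 0.35, adjusted p = 0.704). No copy of RPL39 passed the test. These 5 entries are the copies with most counts.

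RPL39 was not the entry whose share moved most. Across libraries its share ran from 11.6% to 62.3%, while the RPL34 entry ran from 0.981% to 82.4%, RPL23A from 1.91% to 70.4% and RPL35A from 19.5% to 79.8% of their proteins' counts. The share moved by more than 20 percentage points in 11 of the 64 proteins. These genes were chosen after their values were seen.

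RPL34, a large subunit protein, had 135.5, 292 and 289 CPM in the controls, 227, 161 and 253 in blue_light, 4.95, 247 and 11.1 in GL and 298, 227 and 594 in RL. GL 1 and GL 3 stood far below GL 2 and every other library. An entry named BSP1, with the L34 orthology number, on chromosome 20 at 15537113 to 15537461, had 430.2, 260.4 and 429 CPM in GL and 28.9, 244 and 41.1 in RL. GL 2, the GL library highest for RPL34, was lowest for BSP1, and RL 2, the RL library lowest for RPL34, was highest for BSP1. For the named entry GL minus control was log2 −1.45 ± 1.005 SE (edgeR adjusted p = 0.700). Without GL 2 it was −4.89 ± 0.58 (adjusted p = 0.00457), and blue_light minus GL (4.73, adjusted p = 0.00483) and GL minus RL (−5.53, 0.00252) then also passed. That omission took out the GL library unlike the others, so these p-values cannot decide whether the groups differ. The L34 sum, BSP1 included, was 552 ± 156 CPM in the controls, 540.1 ± 83.7 in blue_light, 527 ± 44.3 in GL and 562 ± 147 in RL. BSP1 held on average 42.1% of it in the controls and 72.2% in GL. Whether the BSP1 entry is a copy of RPL34 was not tested, and the L34 sum depends on it.

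RPL23A, which sits near the tunnel exit, had 478, 28.7 and 33.0 CPM in the controls, 1085, 497 and 771 in blue_light, 799, 804 and 797 in GL and 1037, 434 and 694 in RL. Control 2 and control 3 lay far below every other library. Its copy LOC108177974, on chromosome 14 at 65242282 to 65242752, had 642, 1108 and 969 CPM in control and 82.6, 76.4 and 108 in GL. For the named entry GL minus control was log2 2.15 ± 0.84 (edgeR adjusted p = 0.599). Without control 1 it was 4.70 ± 0.43 (adjusted p = 0.00139), and blue_light and RL then also passed against control (4.68, adjusted p = 0.00146, and 4.56, 0.00179). Here too the omitted library was the control unlike the others, so these p-values cannot decide whether the groups differ. The sum over the 49 entries of RPL23A was 1412 ± 89.6 CPM in control and 1154 ± 14.8 in GL (log2 −0.30 ± 0.15, adjusted p = 0.627), a difference of the opposite sign.

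RPL35A, a gene mutated in some patients with Diamond-Blackfan anaemia, had 166, 339 and 730.1 CPM in control, 787, 827 and 720.2 in blue_light, 353, 300.1 and 228 in GL and 229.6, 292 and 347 in RL. The blue_light libraries lay above all of GL and RL but not above control 3. Blue_light minus GL was log2 1.41 ± 0.40 (edgeR adjusted p = 0.244) for the named entry and 0.49 ± 0.17 (adjusted p = 0.269) for the protein, whose sum was 1126 ± 138 CPM in blue_light and 807 ± 69.8 in GL. Its main copy LOC100353295 had 386, 117 and 259 CPM in blue_light and 434, 628 and 188 in control. In RPS12, the second most abundant entry, the copy LOC100354538 had 65.8, 547 and 67.3 CPM in GL, with GL 1 and GL 3 again apart from GL 2, and 430 to 775 in control.

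**Figure D3:**
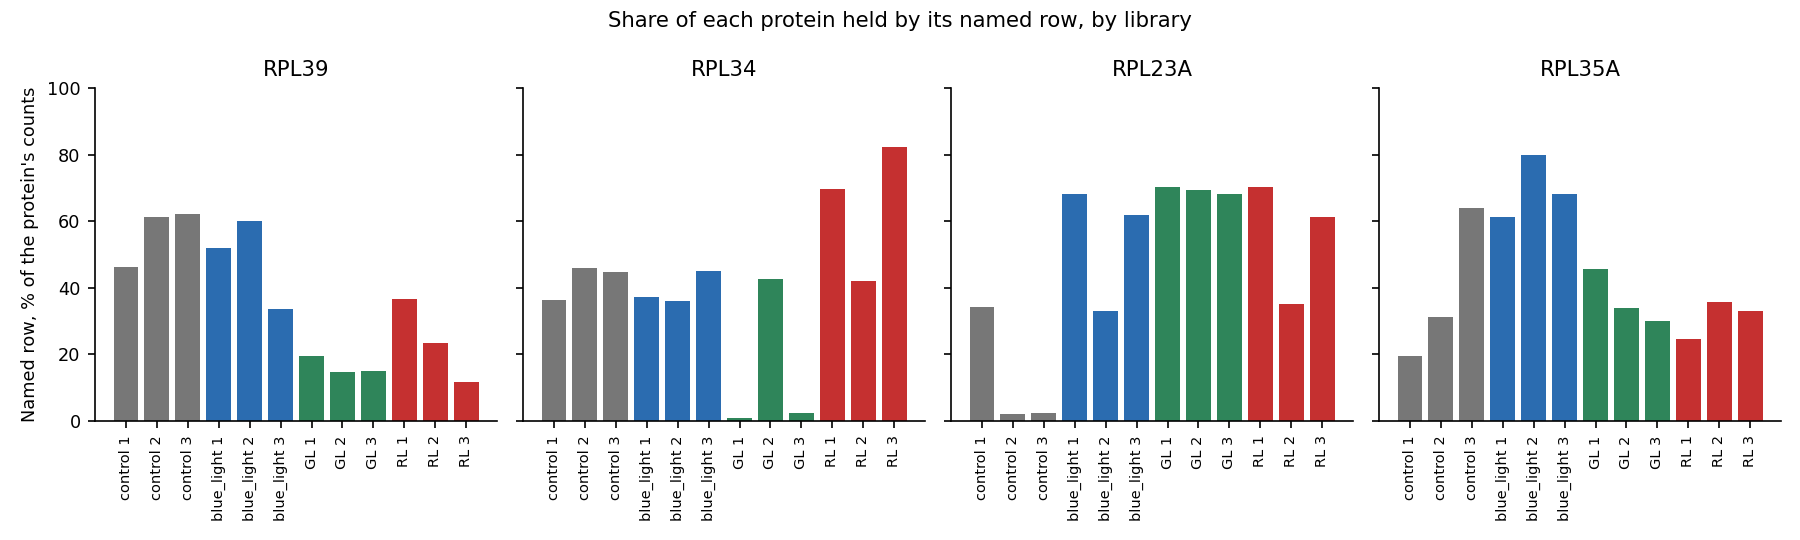
Percent of a protein's counts held by its named entry in each of the 12 libraries for RPL39, RPL34, RPL23A and RPL35A, coloured by group. RPL39 is low in all GL libraries, RPL34 is at 0.981% and 2.24% in GL 1 and GL 3 but 42.8% in GL 2, and RPL23A is at 1.91% and 2.48% in control 2 and control 3.

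Summing copies narrowed the spread. Over the 12 libraries the SD of log2 CPM had a median of 0.238 for the named entries of the 64 proteins and 0.208 for the sums. It was smaller for the sum in 48 of the 61 proteins that had a copy with counts. It exceeded 0.5 for 8 proteins by the named entry and for 1 by the sum, where the highest was 0.574. For RPL34 it went from 2.02 to 0.276, a sum to which BSP1 belongs. For RPL23A it went from 1.80 to 0.180, for RPL39 from 1.01 to 0.276 and for RPL35A from 0.792 to 0.238. Why the spread narrowed was not tested. All genes tested had a median SD of 0.405, above the 0.250 of the tested members. These medians were not matched for level. Of all genes tested, 3786 had a mean below 1 CPM and 4470 a mean of 1 to 10 CPM.

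**Figure D4:**
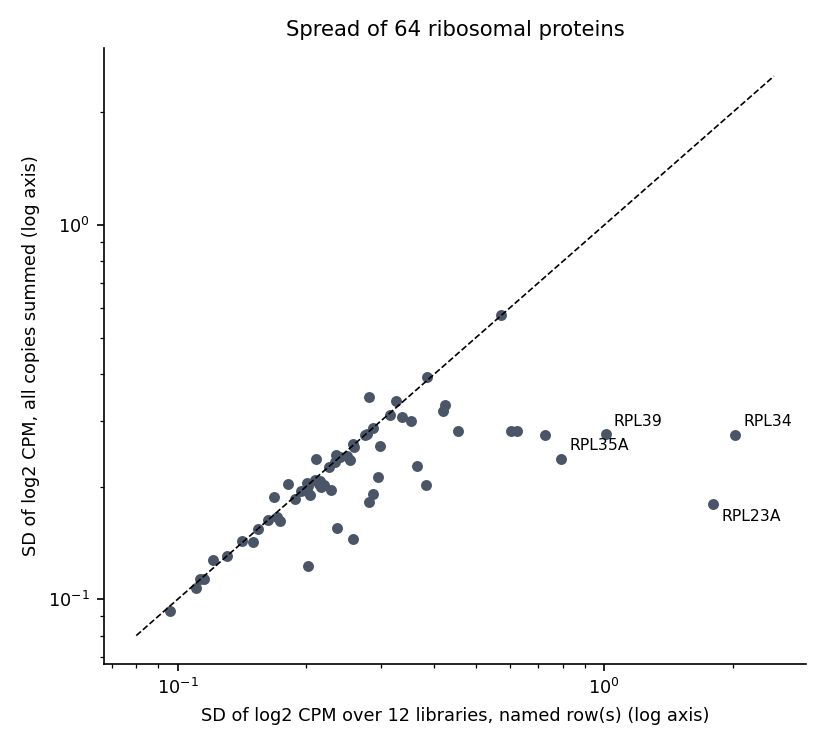
SD of log2 CPM over 12 libraries for each of 64 ribosomal proteins, by the named entry (horizontal) and by the sum over all entries with its orthology number (vertical), both axes logarithmic, with the line of equality dashed. RPL34, RPL23A, RPL39 and RPL35A lie far to the right of the line at sums between 0.180 and 0.276.

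The comparisons were repeated with 1 entry per ribosomal protein, over 17736 genes. No ribosomal protein passed in any of the 6 comparisons. The share of all genes that passed was 0.0169% in GL minus control, blue_light minus control, blue_light minus GL and GL minus RL, and 0.0113% in RL minus control and blue_light minus RL. In GL minus control 3 of the 64 proteins with a named entry had an unadjusted p below 0.05 (7.79% of all genes), and 9 did not overlap, 8 of them lower (18.3% of all genes). Their median was log2 −0.12, with 49 of 64 lower. In GL minus RL the median was also −0.12, with 48 of 64 lower, and 2 had an unadjusted p below 0.05 (8.48%).

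Blue_light minus GL gave the highest count of the 6 comparisons, with 15 of 64 proteins at an unadjusted p below 0.05 (13 higher in blue_light; 14.7% of all genes) and 30 without overlap (20 higher; 26.8% of all genes). The lowest p was that of the L7 sum of RPL7, RPL7L1 and their copies, with 1845 ± 229.9 CPM in blue_light and 1265 ± 17.0 in GL (log2 0.55 ± 0.15, adjusted p = 0.259). The median difference was 0.09, with 41 of 64 higher, beside 0.05 for all genes. All blue_light libraries and no GL library belonged to the set of 5 with many genes at low counts. Set and group cannot be fully told apart in blue_light minus GL. The other 3 comparisons had 0 proteins at an unadjusted p below 0.05, against 3.26% of all genes in blue_light minus control, 4.66% in RL minus control and 5.12% in blue_light minus RL.

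**Figure D5:**
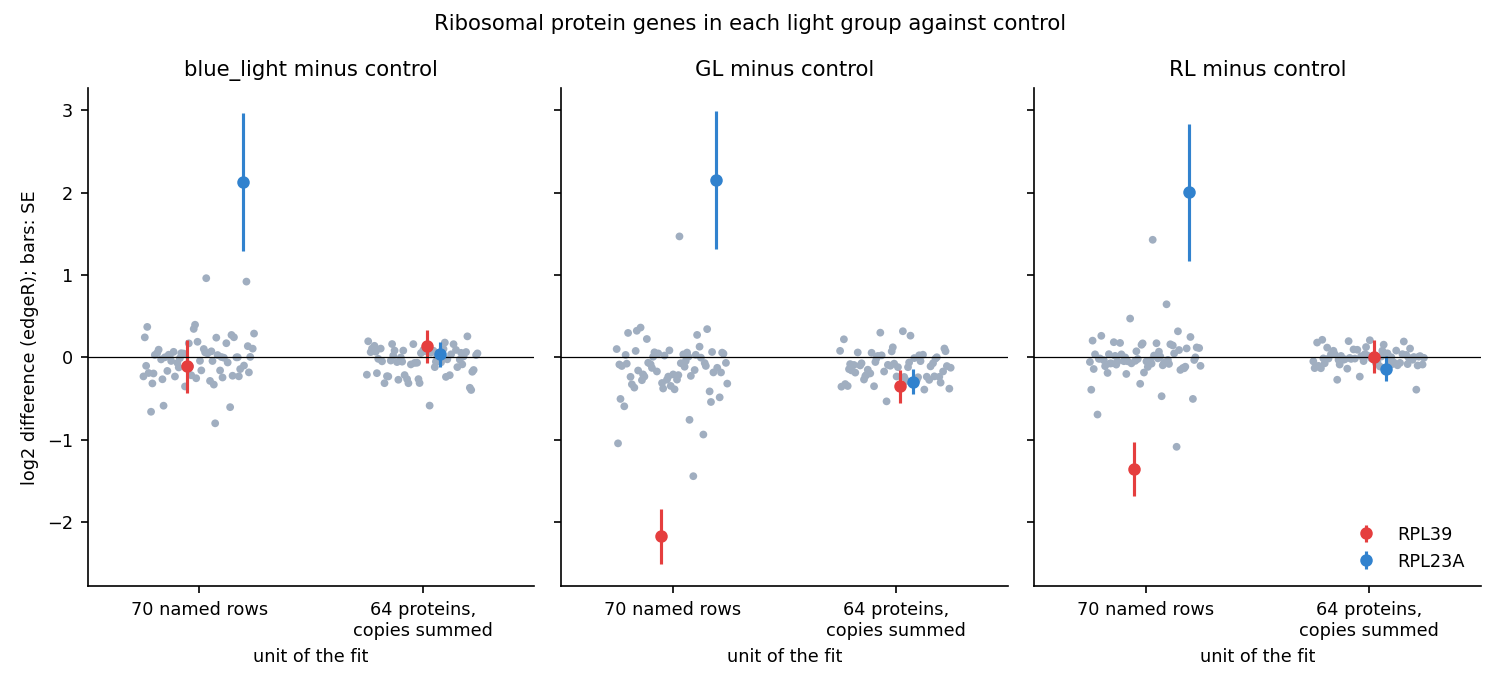
Log2 differences (edgeR) of each light group against control for the 70 tested named entries (left in each panel) and for the 64 proteins with copies summed (right), with RPL39 in red and RPL23A in blue and their SE as bars. In GL the entries reach from −2.18 (RPL39) to 2.15 (RPL23A), while the sums reach from −0.54 to 0.32.

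In GL minus control at the level of entries, 10 of 18171 genes had passed. Of these 7 were ribosomal protein entries, RPL39 and 6 copies of L17, a protein without a named entry. After summing, L17 had 1304 ± 203 CPM in control and 1159 ± 47.0 in GL (log2 −0.18 ± 0.16, adjusted p = 0.791). The 3 genes that passed in this fit were HSPA13, LOC100339782 and LOC100344261, none of them ribosomal.

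Among the other members named by the smallest p, most lay lower in GL. RPS27, a zinc finger protein of the small subunit, had 904 ± 211 CPM in control and 619.9 ± 45.1 in GL (log2 −0.54 ± 0.20, adjusted p = 0.572), with overlapping libraries. The sum of RPS27, RPS27L and their copies gave −0.39 ± 0.19 (adjusted p = 0.627). RPL22L1 had 65.3 ± 13.8 and 38.5 ± 4.46 CPM (−0.76 ± 0.31, adjusted p = 0.601), and its GL libraries lay below all controls. RPL37A, a zinc-binding protein of the large subunit, had 749 ± 122.5 and 580.0 ± 20.5 CPM (−0.37 ± 0.16, adjusted p = 0.610), also without overlap. The named entry held 84.2% to 91.8% of the L37a counts, and the sum gave −0.35 ± 0.16 (adjusted p = 0.627). For the L22 sum of RPL22, RPL22L1 and copies GL minus control was −0.54 ± 0.20 (adjusted p = 0.615).

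GL minus RL gave a lower value for RPL27, a gene known from Diamond-Blackfan anaemia, with 256 ± 50.1 CPM in GL and 399.5 ± 60.2 in RL (−0.64 ± 0.17, adjusted p = 0.370). The L27 sum kept this order at 337 ± 17.7 and 455 ± 71.5 CPM (−0.44 ± 0.16, adjusted p = 0.552). Against control, RPL27 in RL was higher by 0.47 ± 0.17 (adjusted p = 1).

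RPSA, the small subunit protein also known as the laminin receptor precursor, was lowest in blue_light. It had 472, 624 and 548 FPKM in the controls, 322, 224 and 401 in blue_light, 450.5, 621 and 524 in GL and 345, 311 and 477 in RL. All blue_light values lay below all control and GL values. In CPM, blue_light minus control was log2 −0.80 ± 0.24 (edgeR adjusted p = 1) and blue_light minus GL −0.81 ± 0.24 (adjusted p = 0.254). The named entry held 21.1% to 38.3% of the counts of its 57 entries, whose sum was 1341 ± 269.9 CPM in blue_light, 1770 ± 151 in control and 1911 ± 138 in GL (blue_light minus control −0.40 ± 0.19, adjusted p = 1).

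RPS27L had 182.7 ± 26.4 FPKM in blue_light, 138 ± 24.1 in control and 114 ± 22.1 in GL. Blue_light minus GL was 0.63 ± 0.19 (edgeR adjusted p = 0.254). RPL22 and RPS24, the latter another gene of Diamond-Blackfan anaemia, also lay higher in blue_light than in GL without overlap. The RPL22 entry, which as given above may be the gene or a copy, had 89.3 ± 18.9 and 48.7 ± 1.33 CPM (0.88 ± 0.23, adjusted p = 0.238). The L22 sum gave 0.70 ± 0.20 (adjusted p = 0.264). RPS24 had 1096 ± 206 and 719 ± 30.4 CPM (0.61 ± 0.18, adjusted p = 0.254), and its sum 1142 ± 237 and 778 ± 35.1 (0.56 ± 0.19, adjusted p = 0.268). By DESeq2, a second count test, 6 members passed in blue_light minus GL: RPL39, RPL22, RPL35A, RPS24 and RPL7, higher in blue_light, and RPSA, lower. The share of all genes passing by DESeq2 is not reported here. The count of 6 therefore cannot be read as a trait of the members.

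The likeness of other members to RPL39 is a description over 12 libraries, which share depth and scaling. By Spearman correlation of log2 levels RPL37A was nearest (0.839), followed by RPL7 and RPS24 (both 0.790) and RPL30 (0.762). RPL7L1 (−0.734), RPL8 (−0.622), RPL3 (−0.573) and the second RPL18 entry (−0.490) were farthest. RPL8 and RPL3 are proteins of the large subunit close to its catalytic centre. The median over 69 members was 0.0909, with 38 positive, and the median of all members' own medians was 0.241. RPL30, which had 399 ± 84.7 CPM in control and 299 ± 16.8 in GL, and RPL8 differed between GL and control by −0.41 ± 0.18 (adjusted p = 0.610) and 0.27 ± 0.18 (adjusted p = 0.686).

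The entries without a ribosomal protein name were also followed as a group. Of the 815 that carry a member's orthology number, 381 could be tested. In GL minus control 286 of the 381 lay lower with a median of log2 −0.47, beside −0.02 for all genes and −0.11 for the named members, and no entry passed. At a mean of 1 to 10 CPM 105 of 125 lay lower (median −0.62), where 56.5% of all genes of that level lay lower (median −0.10). At 100 CPM or more it was 26 of 37 (median −0.23, beside 0.02). The median kept its sign in every alternative run, from −0.53 without control 1 to −0.28 without the 3 retinal libraries.

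The other light groups did not share this balance. In RL minus control 214 of 381 lay lower (median −0.05), and in blue_light minus control 164 (median 0.07). Both medians turned sign with 1 library left out, the first to 0.05 without RL 2 or 0.04 without control 2, the second to −0.04 without control 1. GL minus RL had 278 lower (median −0.35), and blue_light minus GL 282 higher (median 0.56). The GL libraries were also the deepest as a group, at 63.6 ± 1.73 M counts against 49.4 ± 6.61 in control, 48.5 ± 9.23 in blue_light and 56.8 ± 9.501 in RL. With log2 library size as a covariate the GL minus control median of these entries was −0.37, with 267 of 381 lower.

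Genes that work with the ribosome gave no call in any comparison. In GL minus control, 18 of 37 initiation factors, 7 of 10 elongation factors, 34 of 55 ribosome assembly factors (median −0.12), 8 of 15 RNA polymerase I genes, 7 of 10 quality control genes and 32 of 70 mitochondrial ribosomal proteins lay lower. Of the other TOP messenger RNAs 10 of 19 lay lower, and of the mTORC1 and LARP1 list 7 of 13. In RL minus control 29 of 37 initiation factors and 44 of 55 assembly factors lay higher (both medians 0.12), beside 9172 of 18171 genes.

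The genes of these lists with the smallest p in GL minus control did not pass either. EIF3E, a subunit of the initiation factor that binds the small subunit, had 290.5 ± 47.7 CPM in control and 204 ± 16.7 in GL (log2 −0.51 ± 0.20, edgeR adjusted p = 0.599), and EIF3M of the same complex had 215 ± 34.7 and 162 ± 3.38 (−0.41 ± 0.16, adjusted p = 0.601). ABCE1, which splits ribosomes for reuse, had 114 ± 9.67 and 76.5 ± 11.0 (−0.58 ± 0.21, adjusted p = 0.565). BRIX1 and WDR75 of ribosome assembly had 33.4 ± 1.32 and 23.2 ± 1.09 (−0.53 ± 0.24), and 62.7 ± 5.15 and 46.4 ± 2.31 (−0.43 ± 0.18). MRPL4 of the mitochondrial ribosome lay the other way, at 4.75 ± 1.44 in control and 9.73 ± 1.82 in GL (1.04 ± 0.43, adjusted p = 0.607). RACK1, a small subunit protein outside the RPS names, had 1396 ± 152 and 1287 ± 84.8 CPM.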

How the data were processed

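RNA of 12 rabbit cornea libraries was measured. Per the file headers, each gene has an estimated count and an FPKM in every library, both deposited by the authors. The submitters' processing notes name GRCm38 and mm10, mouse builds, while the deposited entries lie on rabbit RefSeq chromosomes; no aligner, counting method or rabbit build is given in the sources used here. Counts were whole, so rounding moved none. Low counts stepped by about 3.83, taken as 1 fragment for the detection floor of 3 fragments; the step is approximate. Floors and SEs cover counting error and sample spread only, as no molecular identifiers are given.

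Members were found by name; 70 of the 72 identifiers were in a RefSeq table of another assembly, used for names only, 64 with the same symbol. Members and lists were chosen with earlier results of these data known. Counts were fitted in edgeR 4.0.16 (R 4.3.3; quasi-likelihood, TMM, filterByExpr) with 4 group means over all 12 libraries and Benjamini-Hochberg adjustment over all genes tested in a comparison, at 0.05. The same fit was repeated with entries summed by orthology number. CPM are TMM-scaled; fold changes are on the log2 scale. The procedure was tested on simulated data. Named genes were RPL39, the up to 4 members of smallest p per comparison, the 3 highest and 3 lowest by FPKM, paralogues, stalk genes, RPSA, RPS6, RPL5, RPL11, the 4 most and 4 least like RPL39, up to 3 genes per other list by p in GL minus control, and the fullest RPL39 copies; genes with moving shares and L17 were named after their values were seen. Some genes this rule or the values would name are not reported here. Alternatives covered scaling, filters, DESeq2 1.42.0, limma 3.58.1 on log2(FPKM + 1) and log2(FPKM + 0.1), step-divided counts, a replicate block, fits of 2 groups, covariates and left-out libraries. Sequences are not shown.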

Additional observations from a re-analysis of the deposited data

How the results depend on the processing

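The count of member entries passing in GL minus control was 1 and became 0 with the library set as a covariate, by limma on log2(FPKM + 1), with log2 library size as a covariate and without the 3 retinal libraries; leaving out single libraries gave 0 to 2. In RL minus control (0) DESeq2 gave 1 and single omissions 0 to 1; in blue_light minus control (0) omissions gave 0 to 1. In blue_light minus GL (0) DESeq2 gave 6, a mean FPKM of 5 or more 1, no filter 1 and omissions 0 to 1. In blue_light minus RL and GL minus RL (both 0) DESeq2 gave 1 each, and omissions gave 0 to 1 in GL minus RL. The share of all genes passing in each alternative is not reported here, so these counts have no background beside them. The cause was not tested.

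RPL39 in GL minus control kept its sign in all 25 alternatives. Its log2 difference was −2.15 with the set covariate (adjusted p = 0.0609), −2.18 by limma on log2(FPKM + 1) (0.0559), −1.75 with the library size covariate (0.375), −1.95 without the retinal libraries (0.772) and −0.35 as the sum with its copies (0.638); single omissions gave −2.40 to −2.05. Over all alternatives its adjusted p ran from 8.6e-08 to 0.772. The sum over RPL39 entries did not pass in any of 24 alternatives (log2 −0.48 to −0.14). RPL39 in blue_light minus control changed sign among them (−0.35 to 0.13) without passing.

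Deviations of same-numbered libraries of different groups had correlations of −0.0895 to 0.340 (median 0.0339). Those of differently numbered libraries ran from −0.304 to 0.243 (median −0.0221). All pairs among the libraries numbered 1 were positive, from 0.0120 to 0.340 (control 1 with RL 1). The numbers were not taken as pairs. With a replicate block RPL39 in GL minus control was −2.23 (adjusted p = 0.0437) and its sum −0.35, the member count stayed 1 there and 0 in the other 5 comparisons, and the block changed no other call.

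With 3 libraries a group, a missed threshold does not show that levels were alike. Sums by orthology number inherit the table's annotation, and reads shared with copies that the table does not list cannot be placed. The 3 GL libraries all lie among the deepest, so depth and GL cannot be fully told apart. The set of 5 libraries with many genes at low counts held every blue_light library and no GL library. In blue_light minus GL that set and the groups cannot be fully told apart either.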
